A study of Mus musculus with 4 samples.

Results

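The genes Bcat1, Mthfd2l and Acss3 encode metabolic enzymes, and their circular RNAs (circRNAs) were examined in primary mouse articular chondrocytes, the cells of joint cartilage. A circRNA is a closed RNA loop formed by back-splicing, in which the end of a downstream exon is joined to the start of an upstream one, and it was measured here by the reads that cross that junction. A circRNA was taken as a member when both junction ends lay inside the RefSeq span of one of the 3 genes in mm10, with a tolerance of 1 bp. This gave 33 of the 40909 circRNAs of the series, 8 from Bcat1, 19 from Mthfd2l and 6 from Acss3, and each lay inside its own gene alone. The genes were selected on the junction reads measured in these same 4 libraries, for changes between the groups. Their values in each group are therefore a description of the members, without a test.

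In 2 libraries the cells had received interleukin-1β (IL-1β), an inflammatory cytokine, as the recombinant human protein for 24 h at 10 ng/ml. The other 2 libraries were controls. All came from primary cells at passage 1 to 3, and no genotype, strain, age or sex is given in the labels. One treatment text is attached to every sample, controls included, so the source name decided the group. Whether the pair of libraries in a group stems from different animals or culture dishes is not labelled. The p-values below thus cover the differences among these 4 libraries alone, and those may be technical.

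Sequencing gave 895774 and 980542 junction reads for IL-1β 1 and 2, against 1198010 and 1203855 for control 1 and 2. The 3 genes took 3686 and 4192 of these after IL-1β, against 2936 and 3345 in control. Levels are given as CPM, junction reads scaled to a common library size after normalisation, and 3 reads corresponded to 3.30 and 3.07 CPM after IL-1β, against 2.57 and 2.46 CPM in control. A junction read count does not grow with transcript length, but it says nothing of the linear mRNA of the gene. These are bulk samples, in which fewer cells that make a circle and less of it per cell cannot be told apart. Of 18 chondrocyte marker genes 5 had any junction reads, mainly Sox5 and Sox6, while Col2a1, Acan and Sox9 had 0 in every library. The summed level of that list was 271 and 328 CPM after IL-1β, against 411 and 248 CPM in control. Of 10 fibroblast markers 7 had reads, at 436 and 516 CPM after IL-1β, against 391 and 616 CPM in control. Single genes were read from the macrophage list of 8 (Mrc1, at 10.0 and 8.27 CPM after IL-1β, against 12.8 and 0 CPM in control) and the endothelial list of 5 (Pecam1, 8 reads in IL-1β 1). Many abundant mRNAs give no circles, so 0 junction reads do not show that a marker is absent, and the part of cell makeup in the results below was not tested.

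BCAT1 is the cytosolic branched-chain aminotransferase. It moves the amino group of leucine, isoleucine or valine onto α-ketoglutarate, which gives glutamate and a branched-chain keto acid. MTHFD2L is a mitochondrial enzyme of the folate cycle, with dehydrogenase and cyclohydrolase activities on methylene-tetrahydrofolate, and takes part in the supply of formate for nucleotide synthesis. ACSS3 is a mitochondrial acyl-CoA synthetase of the short-chain family, and the rat enzyme is known to prefer propionate. Genes of branched-chain amino acid, folate and serine, acyl-CoA and propionate, and central carbon metabolism were counted beside the members.

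The junction ends of each gene are read here in the direction of transcription. Bcat1 lies on chromosome 6 (144993835 to 145076157) and its circles on the minus strand. Its 8 circles used 3 upstream ends, the ends nearest the gene's start, and 5 downstream ends. The upstream end at 145039635 was in 3 circles that held 97.2% of the gene's reads. Mthfd2l lies on chromosome 5 (90930873 to 91021368), and its 19 circles on the plus strand used 6 upstream and 9 downstream ends. The upstream end at 90946790 was in 9 circles that likewise held 97.2% of its reads. Acss3 lies on chromosome 10 (106933514 to 107123761), and its 6 circles on the minus strand used 4 upstream and 5 downstream ends. The most used upstream end of Acss3, 107053516, was in 3 circles with 71.4% of its reads. Over the 2209 host genes with at least 200 reads, the most used upstream end held a median of 70.5% of a host's reads, so Bcat1 and Mthfd2l stood at percentiles 87.4 and 87.5 and Acss3 at percentile 51.2. On the downstream side the leading end held 92.3% of the Bcat1 reads, 48.8% of the Mthfd2l reads and 63.3% of the Acss3 reads, against a median of 66.1%. The reads of Bcat1 thus converged on one pair of ends, while those of Mthfd2l ran from one upstream end to several downstream ends.

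**Figure D1:**
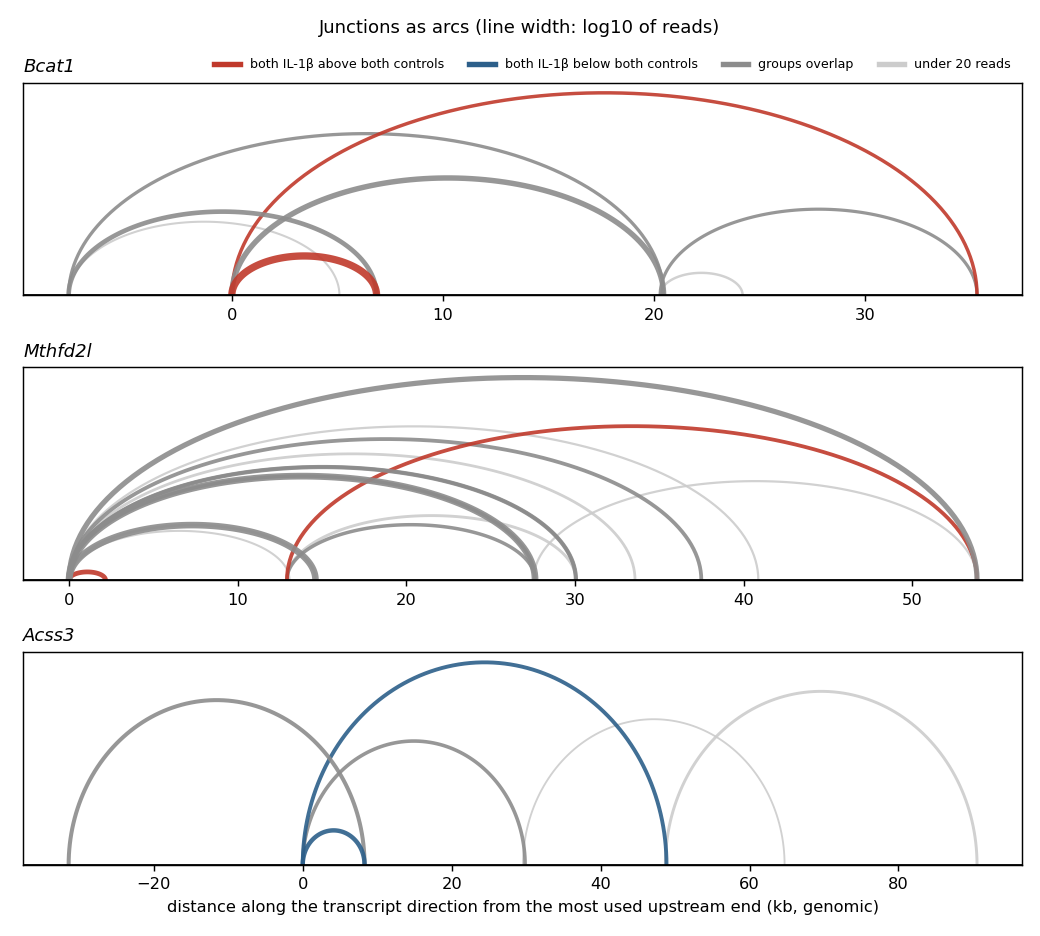
Each arc joins the 2 ends of a back-splice junction of Bcat1 (top), Mthfd2l (middle) or Acss3 (bottom), drawn by genomic distance in kb along the transcript direction from the most used upstream end, with line width by log10 of the reads over all 4 libraries. Colour marks circles with at least 20 reads whose IL-1β values both lie above (4 circles) or both below (2 circles) the controls. Most Mthfd2l arcs start at 1 place, and the thick red Bcat1 arc is the leading circle.

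Near the main Mthfd2l start, 3 further upstream ends lay 29 and 17 bp before it and 23 bp after it. They were in 6 circles with 85 reads in all, and the 4 ends together held 98.5% of the gene's reads within 52 bp. No member had a neighbouring junction with both ends within 5 nt. An upstream end of some circles lay shortly before a downstream end of others, as the 2 sides of a possible exon do. The distances were 164 bp in Bcat1, 153 and 93 bp in Mthfd2l and 152 and 284 bp in Acss3. The RefSeq table used has no exon positions, so whether a junction end is an annotated exon border is not stated.

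The promoter windows, 300 bases from 250 before to 50 after an annotated start, are shown because they place the starts of the genes relative to the circles. RefSeq (GRCm38.p6) gave windows for 2 of the 3 genes, 2 for Bcat1 and 1 for Mthfd2l. The upstream Bcat1 start, at 145076157, lies 36522 bp before the main upstream end of its circles, and the downstream start, at 145048812, lies 9177 bp before it. All Bcat1 junction ends lie downstream of both starts, the nearest 1449 bp after the downstream one. The Mthfd2l start lies 15594 bp before its main upstream end. The first Bcat1 window is at chr6:145076108-145076407 (minus strand), the second at chr6:145048763-145049062 (minus strand) and the Mthfd2l window at chr5:90930946-90931245 (plus strand). Capitals mark the motif matches described below.
Bcat1 upstream start: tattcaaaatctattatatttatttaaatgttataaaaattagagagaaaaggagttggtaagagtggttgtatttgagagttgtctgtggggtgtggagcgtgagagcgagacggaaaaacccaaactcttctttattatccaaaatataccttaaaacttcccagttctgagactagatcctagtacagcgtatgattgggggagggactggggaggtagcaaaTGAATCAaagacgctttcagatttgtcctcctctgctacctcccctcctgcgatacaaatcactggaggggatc
Bcat1 downstream start: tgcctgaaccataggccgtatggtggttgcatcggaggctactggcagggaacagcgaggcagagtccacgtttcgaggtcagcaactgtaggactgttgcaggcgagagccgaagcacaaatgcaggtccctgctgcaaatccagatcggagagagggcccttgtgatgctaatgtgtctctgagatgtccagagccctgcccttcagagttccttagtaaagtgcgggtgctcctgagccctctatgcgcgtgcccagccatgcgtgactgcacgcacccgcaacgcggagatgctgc
Mthfd2l start: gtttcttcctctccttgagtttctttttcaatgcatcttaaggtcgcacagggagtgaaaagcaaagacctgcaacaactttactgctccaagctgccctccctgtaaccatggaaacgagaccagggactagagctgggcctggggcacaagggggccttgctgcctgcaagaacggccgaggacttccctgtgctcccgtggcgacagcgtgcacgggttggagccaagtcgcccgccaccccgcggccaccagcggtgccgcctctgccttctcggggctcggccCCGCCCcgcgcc

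The windows differed in base composition. The upstream Bcat1 window had 41.0% G and C and 6 CpG sites, the downstream Bcat1 window 58.7% and 16 sites, and the Mthfd2l window 62.7% and 19 sites, against medians of 52.7% and 7 sites over 32851 windows. The AP-1 pattern searched, TGANTCA, was a loosened one that allows any base at its centre. On both strands it had 1 match, in the upstream Bcat1 window from 24 to 18 bases before the start (first and last base at -24 and -18). The match, TGAATCA, has A at the centre and does not meet the stricter AP-1 motif with C or G there. The loosened pattern is held by 7.81% of all windows. The GC box GGGCGG had 1 match, on the opposite strand of the Mthfd2l window, 38 to 43 bases after the start, and 35.7% of all windows hold it. The C/EBP-ATF element TGATGNAAT, the E-box CACGTG and the NF-κB motif had 0 matches in the 3 windows, against 0.965%, 7.15% and 8.46% of all windows. The matches did not overlap one another.

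With all circles of a gene summed, Bcat1 was higher after IL-1β, Acss3 was lower, and Mthfd2l overlapped between the groups. Bcat1 had 2078 and 2589 reads after IL-1β, against 1502 and 1311 in control. These were 2318 and 2676 CPM after IL-1β, against 1284 and 1148 CPM in control. Both IL-1β libraries lay above both controls, with means of 2497 ± 253 CPM after IL-1β, against 1216 ± 96.0 CPM in control (SD, n = 2 each), and the fitted log2 change was 1.04 ± 0.18 (SE). Acss3 had 3 and 62 reads after IL-1β, against 85 and 133 in control. Its level was 3.35 and 64.1 CPM after IL-1β, against 72.6 and 116 CPM in control. The groups did not overlap, but the second IL-1β library lay close to the first control while the first held nearly no reads. The log2 change of Acss3 was -1.48 ± 0.99 (SE), and it was -0.56 without IL-1β 1 and -4.77 without IL-1β 2. Mthfd2l had 1605 and 1541 reads after IL-1β, against 1349 and 1901 in control. Its level was 1790 and 1593 CPM after IL-1β, against 1153 and 1664 CPM in control. The controls spanned the lower IL-1β library, and the log2 change of 0.26 ± 0.22 (SE) was 0.55 without control 2 and 0.065 without control 1. Over all 4879 hosts tested, 17.0% had both IL-1β libraries above both controls and 18.9% had both below. Nothing is read from the members against these shares, or from a member's change set against its SE, since the members were picked for this contrast.

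**Figure D2:**
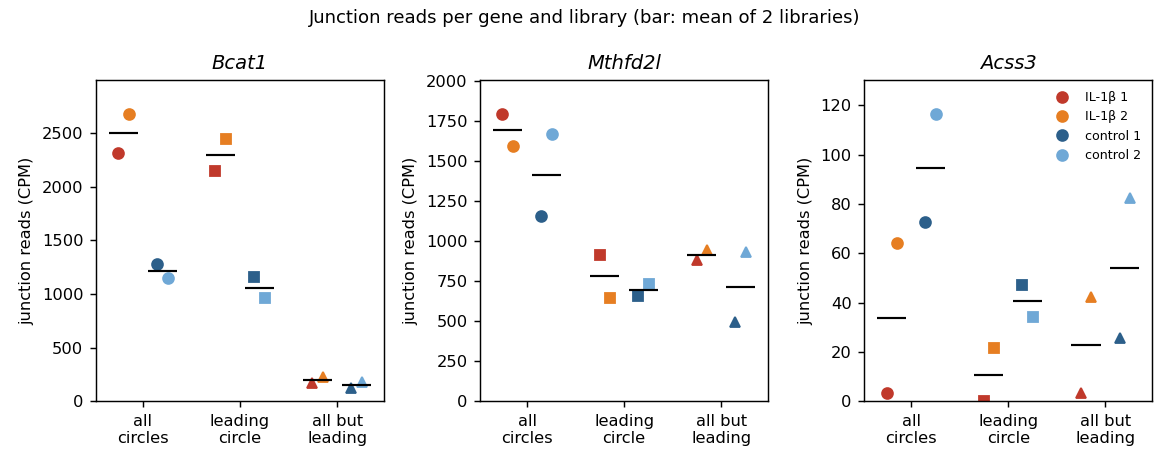
Junction reads in CPM for each gene by library, IL-1β left and control right, for all circles (points), the leading circle (squares) and all circles but the leading one (triangles), with bars at the mean of 2 libraries. The Bcat1 groups separate in the sum and the leading circle but not in the rest, the Mthfd2l groups overlap, and IL-1β 1 lies near 0 for Acss3.

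By total junction reads Bcat1 ranked 79 of 6930 hosts with 7480 reads, Mthfd2l ranked 104 with 6396 and Acss3 ranked 1863 with 283. By number of circles the order differed, since Mthfd2l ranked 360, Bcat1 1359 and Acss3 1862. Of the 33 circles 20 had at least 20 reads over the 4 libraries, 6 from Bcat1, 10 from Mthfd2l and 4 from Acss3. The other 13 circles had between 3 and 14 reads each, too few for a comparison. Of the 20, 4 had both IL-1β libraries above both controls and 2 had both below, against 16.4% and 17.2% of the 15333 circRNAs tested, and the other 14 overlapped. Over the same 15333 circRNAs edgeR's quasi-likelihood test called 3 (0.0196%), with 3.44% at an unadjusted p under 0.05.

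Bcat1 gave most of its reads to circRNA.31933 (chromosome 6, 145032783 to 145039635, spanning 6853 bp), which held 90.2% of them. Among hosts with at least 200 reads the leading circle held a median of 54.8%, which placed Bcat1 at percentile 87.3. The circle had 1924 and 2369 reads after IL-1β, against 1353 and 1100 in control. Its level was 2115 and 2428 CPM after IL-1β, against 1158 and 900 CPM in control, with no overlap. It was 2.21-fold higher after IL-1β, at a log2 change of 1.14 ± 0.23 (SE). The authors' own depth-scaled unit, SRPBM, rescales these same reads. On it the circle stood at 161 and 177 after IL-1β and at 115 and 68.3 in control, without overlap.

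The other 7 Bcat1 circles, summed, did not separate the groups. They gave 154 and 220 reads after IL-1β, against 149 and 211 in control. That was 172 and 227 CPM after IL-1β, against 127 and 185 CPM in control, 1.28-fold apart in the means. The second circle, circRNA.31931, starts at the same upstream end and runs to 145019192, past the downstream end of the leading circle. It had 94.5 and 167 CPM after IL-1β, against 95.9 and 110 CPM in control, so the groups overlapped. The third, circRNA.31934, shares the downstream end of the leading circle and starts at 145047363, and it had 44.0 and 35.9 CPM after IL-1β, against 26.5 and 40.9 CPM in control. Both circles share 1 end with the leading circle, and the log2 changes were 0.35 ± 0.40 and 0.24 ± 0.63 (SE). The longest Bcat1 circle, circRNA.31928 (35285 bp), was the other one without overlap, on 11 and 15 reads after IL-1β, against 3 and 0 in control. The remaining circles with at least 20 reads were circRNA.31932, with 9 and 0 reads after IL-1β, against 3 and 11 in control, and circRNA.31927, with 4 and 0 reads after IL-1β, against 0 and 16 in control, and each was unread in some libraries of a group. The leading circle took 92.6% and 91.5% of the gene's reads after IL-1β, against 90.1% and 83.9% in control.

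**Figure D3:**
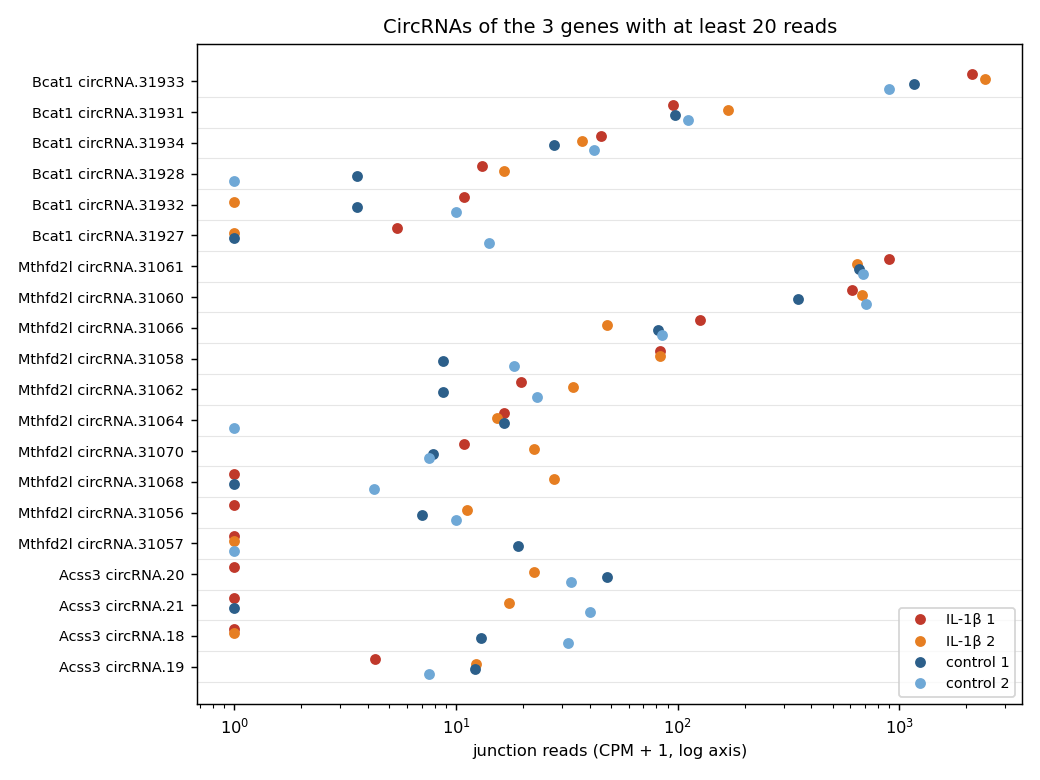
Level of each of the 20 circles with at least 20 reads, as CPM + 1 on a log axis, with 1 point per library and 0 reads at 1. The points of circRNA.31933 and circRNA.31058 separate by group well above the floor, whereas 3 of the 4 Acss3 circles have points at 0 and circRNA.19 has none.

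Mthfd2l divided its reads mainly between 2 circles of the same upstream end, and neither separated the groups. The leading one, circRNA.31061 (chromosome 5, 90946790 to 90974415, 27626 bp), held 47.6% of the reads. It had 817 and 625 reads after IL-1β, against 767 and 837 in control. Its level was 898 and 641 CPM after IL-1β, against 657 and 685 CPM in control, with the highest and the lowest value both in IL-1β libraries. The second, circRNA.31060 (90946790 to 90961397, 14608 bp), held 38.8% and had 554 and 659 reads after IL-1β, against 406 and 860 in control. Its level was 609 and 675 CPM after IL-1β, against 348 and 704 CPM in control. The 2 controls differed more than the groups, and the log2 change of 0.29 ± 0.36 (SE) was -0.16 without control 1 and 0.89 without control 2.

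The shortest Mthfd2l circle was higher in both IL-1β libraries, by more than any other Mthfd2l circle read in all 4 libraries. circRNA.31058 (90946790 to 90948945) spans 2156 bp, begins at the same upstream end and held 2.89% of the gene's reads. It had 75 and 80 reads after IL-1β, against 9 and 21 in control. Its level was 82.4 and 82.0 CPM after IL-1β, against 7.70 and 17.2 CPM in control. Both IL-1β libraries lay far above both controls, 6.61-fold in the means, with a log2 change of 2.71 ± 0.63 (SE) that was 2.22 without control 1 and 3.40 without control 2. It took 4.67% and 5.19% of the gene's reads after IL-1β, against 0.667% and 1.10% in control. On the SRPBM scale it stood at 6.29 and 5.96 after IL-1β, against 0.763 and 1.30 in control. The 18 other Mthfd2l circles summed to 1707 and 1510 CPM after IL-1β, against 1145 and 1646 CPM in control, so the gene's total without this circle still overlapped between the groups.

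Among the longer Mthfd2l circles, circRNA.31066 (90946790 to 91000619) was the longest at 53830 bp and had 125 and 47.1 CPM after IL-1β, against 80.5 and 83.5 CPM in control. circRNA.31062 had 18.7 and 32.8 CPM after IL-1β, against 7.70 and 22.1 CPM in control, and circRNA.31064 had 15.4 and 14.3 CPM after IL-1β, against 15.4 and 0 CPM in control. These 3 share the main upstream end and overlapped between the groups. A further 3 circles, with 89 reads in all, began at an upstream end 12915 bp downstream of the main one. Of these, circRNA.31070 (40915 bp) had 9 and 21 reads after IL-1β, against 8 and 8 in control, without overlap in CPM, and circRNA.31068 had 0 and 26 reads after IL-1β, against 0 and 4 in control. The circles circRNA.31056, with 0 and 10 reads after IL-1β, against 7 and 11 in control, and circRNA.31057, with 0 and 0 reads after IL-1β, against 21 and 0 in control, began 17 bp before the main end. In all, 10 of the 19 Mthfd2l circles were read in 1 library only, as were 2 of the 8 Bcat1 circles and 2 of the 6 Acss3 circles.

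**Figure D4:**
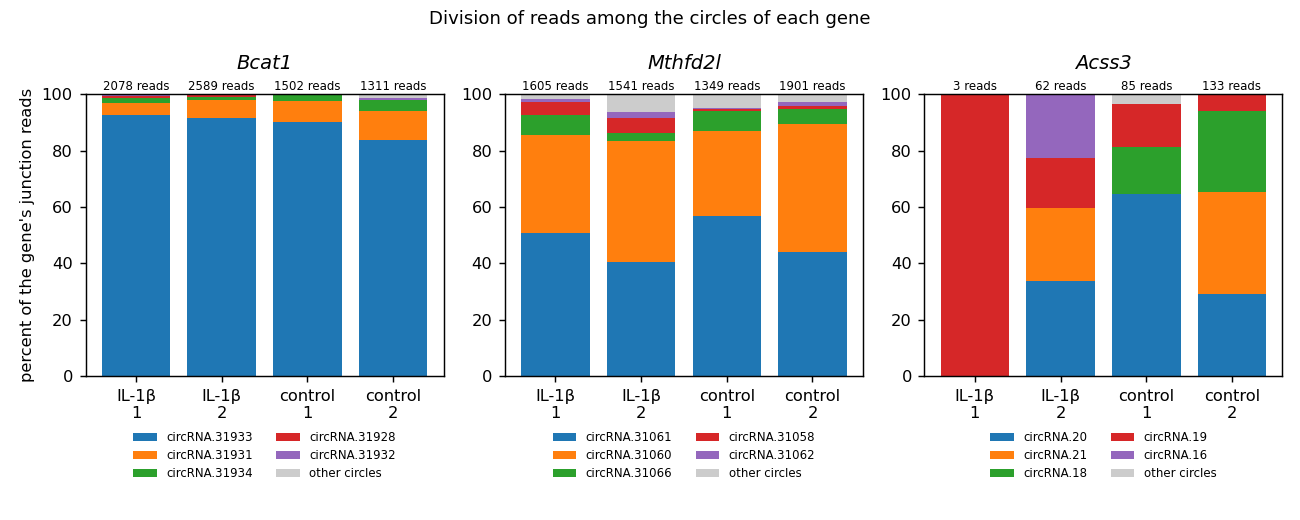
Percent of each gene's junction reads held by its 5 most read circles and by the others, for each library, with the gene's reads in that library above the bar. The order of the 3 most read Bcat1 circles is alike in the 4 libraries, the share of circRNA.31058 of Mthfd2l is larger after IL-1β, and the IL-1β 1 bar of Acss3 rests on 3 reads.

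Acss3 had no dominant circle. circRNA.20 (chromosome 10, 107045213 to 107053516, 8304 bp) held 40.6% of the reads, and had 0 and 21 reads after IL-1β, against 55 and 39 in control. That was 0 and 21.5 CPM after IL-1β, against 47.1 and 31.9 CPM in control, lower in both IL-1β libraries than in either control. circRNA.18 (107004664 to 107053516, 48853 bp) had 0 and 0 reads after IL-1β, against 14 and 38 in control. Its control mean was 6.76-fold the IL-1β floor of 3 reads per library, a value that covers counting error only. Libraries of a group differed by more than counting error over hosts with at least 20 reads in that group. The chi-square per degree of freedom was 10.6 for IL-1β and 23.3 for control, so the fold is not a least change. circRNA.21 (107045213 to 107084951) had 0 and 16 reads after IL-1β, against 0 and 48 in control, so it was read in 1 library of each group. circRNA.19 (107023654 to 107053516) was the sole Acss3 circle read in all 4 libraries, at 3 and 11 reads after IL-1β, against 13 and 8 in control, and its groups overlapped. Of the 6 Acss3 circles, 5 and 2 had no reads in the IL-1β libraries, against 2 and 2 in the controls, so IL-1β 1 stood apart from the other 3 libraries.

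Genes of the same enzyme families differed in how much they were read. The mitochondrial branched-chain aminotransferase Bcat2 formed 1 circle with 0 and 0 reads after IL-1β, against 18 and 28 in control. Its control mean was 6.19-fold the floor of 3 reads per library, which sets no least change, since floors cover counting error only. Bcat2 did not pass over all hosts (adjusted p = 0.882, edgeR's quasi-likelihood test). Mthfd2, the mitochondrial enzyme closest to MTHFD2L in function, stood at 234 and 316 CPM after IL-1β, against 224 and 363 CPM in control. Mthfd1, the cytosolic trifunctional enzyme, had 33 and 53 reads after IL-1β, against 64 and 8 in control. Mthfd1l, a mitochondrial formyltetrahydrofolate synthetase, formed 35 circles and stood at 887 and 906 CPM after IL-1β, against 640 and 756 CPM in control. Its groups did not overlap, with a log2 change of 0.36 ± 0.21 (SE), but it did not pass (adjusted p = 0.882 in edgeR). The acetyl-CoA synthetase genes Acss1 and Acss2 had 0 circles in the table used.

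Among 141 other genes of the 4 metabolic lists, 97 had junction reads and 71 had the 20 reads needed for the test. None passed an adjusted p of 0.05 in edgeR, and 0.0% of all 4879 hosts did. Before adjustment, 4 of the 71 had p below 0.05, as did 222 of all hosts (4.55%). DESeq2 called 1 of the 71, the lactate dehydrogenase gene Ldha, and 55 of all hosts (1.13%), so the lists' count was near the background. DESeq2 gave no adjusted p for some hosts, Bcat2 and Acsl4 among the 71, and these counted as not called. Log2 changes were positive for 33 of the 71 (46.5%) and negative for 38, against 48.0% positive over all tested hosts. Their median was -0.11, against -0.03 over all tested hosts. Scaled by the authors' SRPBM depth, the median of the 71 was -0.31, against -0.24 over all tested hosts. The median of the 71 was also -0.11 when the 5 genes unread in one group were placed at their fold against the floor.

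**Figure D5:**
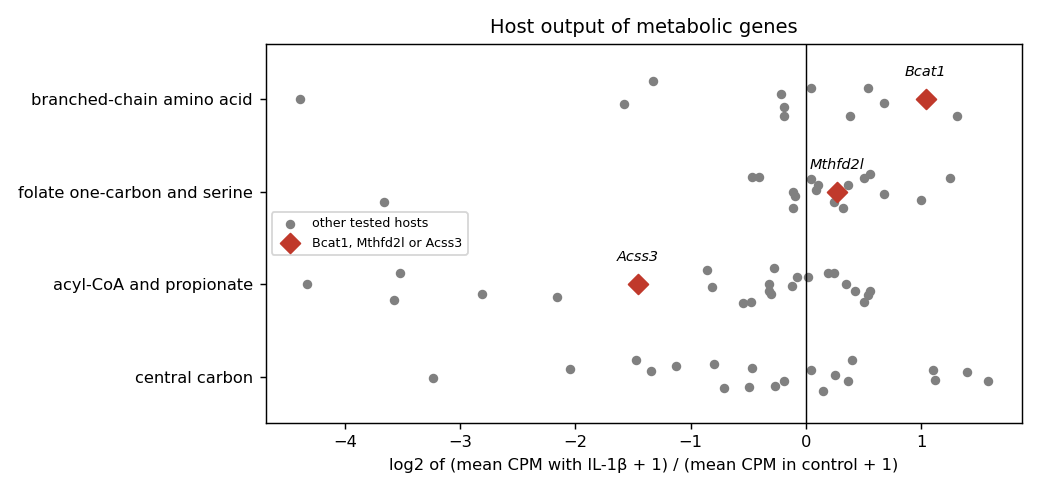
Log2 ratio of the group means in CPM, with 1 CPM added, for each tested host of the 4 metabolic lists (grey) and for Bcat1, Mthfd2l and Acss3 (red diamonds). The ratios of the other hosts lie on both sides of 0 in each list, and none of those hosts passed edgeR's test.

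In the branched-chain amino acid list, 5 of 11 tested hosts (45.5%) had a positive log2 change and 6 a negative one, with a median of -0.19. Hibadh, which acts in valine breakdown downstream of the aminotransferases, stood at 849 and 917 CPM after IL-1β, against 622 and 481 CPM in control (log2 change 0.68 ± 0.22, adjusted p = 0.882 in edgeR). Auh, a hydratase of leucine breakdown, stood at 59.1 and 88.9 CPM after IL-1β, against 46.1 and 55.2 CPM in control. Acadsb, an acyl-CoA dehydrogenase, had 28 and 14 reads after IL-1β, against 12 and 8 in control. Bcat2, described above, had the second lowest p of the list. The keto acid dehydrogenase subunit Bckdhb had more reads than any other list host here, 1017 and 657 after IL-1β, against 1420 and 982 in control, with a log2 change of -0.19 ± 0.29.

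In the list of folate metabolism and serine synthesis, 11 of 17 tested hosts (64.7%) had a positive log2 change and 6 a negative one, with a median of 0.11. Besides Mthfd1l, the genes with the lowest p were Psph, Ahcyl2 and Ahcyl1. Psph, the last enzyme of serine synthesis, had 0 and 0 reads after IL-1β, against 16 and 11 in control. Ahcyl2 stood at 298 and 338 CPM after IL-1β, against 580 and 299 CPM in control, and Ahcyl1 at 36.8 and 35.1 CPM after IL-1β, against 22.2 and 28.0 CPM in control, both relatives of adenosylhomocysteinase. None passed over all hosts.

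In the acyl-CoA and propionate list, 8 of 23 tested hosts (34.8%) had a positive log2 change and 15 a negative one, with a median of -0.31. Over all tested hosts 48.0% were positive, and 3 of the 23 were unread in one group. Acsl4 and Acsl3, long-chain acyl-CoA synthetases, had 0 reads in both IL-1β libraries, with 19 and 25 reads in control for Acsl4 and 0 and 25 for Acsl3. Pdk4, a kinase that inhibits pyruvate dehydrogenase, had 0 reads after IL-1β, against 0 and 24 in control. Oxct1, which activates ketone bodies, was the most read of the 4 and stood at 1196 and 1175 CPM after IL-1β, against 1442 and 1428 CPM in control. Its groups did not overlap, at a log2 change of -0.28 ± 0.18, and it did not pass (adjusted p = 0.882 in edgeR). Pcca, a subunit of the propionyl-CoA carboxylase that takes the product of propionate activation, had 584 and 584 reads after IL-1β, against 786 and 1026 in control. Its level was 651 and 604 CPM after IL-1β, against 672 and 898 CPM in control, so IL-1β 1 lay close to control 1. The log2 change was -0.32 ± 0.23, with an adjusted p of 0.924 in edgeR. Pccb had 10 and 0 reads after IL-1β, against 13 and 6 in control, and Mmut 0 and 15, against 15 and 0. Both overlapped between the groups, at log2 changes of -0.55 and 0.27.

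In the central carbon list, 9 of 20 tested hosts (45.0%) had a positive log2 change and 11 a negative one, with a median of -0.23. Ldha, which converts pyruvate to lactate, had 269 and 232 reads after IL-1β, against 161 and 129 in control. Its level was 300.1 and 240 CPM after IL-1β, against 138 and 113 CPM in control, 2.16-fold higher and without overlap. It did not pass over all hosts in edgeR (adjusted p = 0.882) and did in DESeq2 (adjusted p = 0.0295), and over the 13 alternatives its adjusted p ranged from 0.0295 to 0.999. Slc16a1, a lactate and pyruvate transporter, stood at 42.4 and 70.3 CPM after IL-1β, against 18.8 and 22.8 CPM in control. Pfkfb3, which makes the activator of phosphofructokinase, had 0 and 3 reads after IL-1β, against 17 and 36 in control, and Aco1, the cytosolic aconitase, stood at 946 and 941 CPM after IL-1β, against 828 and 601 CPM in control. None of these 3 passed either.

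Over the 4 libraries, the hosts with the pattern most like that of a member were found by the distance between log2 profiles centred on their own mean, among 2209 hosts with at least 200 reads. Nearest to Bcat1 were the TGF-β receptor gene Tgfbr1 (distance 0.05 on the log2 scale) and the semaphorin genes Sema3c (0.09) and Sema3a (0.12). Tgfbr1 stood at 95.9 and 110 CPM after IL-1β, against 50.4 and 47.3 CPM in control. The hosts given for Mthfd2l are Gatad1 (0.06) and Ints8 (0.10). Nearest to Acss3 were Rasa4, Upf1 and Sil1, at distances of 0.77, 0.77 and 0.81. These hosts were also low in IL-1β 1. Rasa4 stood at 4.46 and 57.9 CPM after IL-1β, against 43.6 and 87.6 CPM in control. Upf1 stood at 4.46 and 69.3 CPM after IL-1β, against 70.1 and 70.9 CPM in control, and Sil1 at 6.69 and 73.4 CPM after IL-1β, against 165 and 141 CPM in control. Within a distance of 0.5 there were 65 hosts for Bcat1, 399 for Mthfd2l and 0 for Acss3. With 4 points a profile, closeness is a description of these libraries.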

How the data were processed

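Circular RNAs were profiled in 4 libraries of primary mouse articular chondrocytes. Total RNA was depleted of ribosomal RNA and digested with RNase R, an enzyme that removes linear RNA, before stranded library preparation, per the labels' protocols. Per the submitters' processing notes, mm10 and Bowtie2 were used. Which program called the circles, with which filters, is not given in the sources used here. Junction read counts per circle were deposited as whole numbers, per the file headers. Beside them the authors gave SRPBM, a signal scaled by depth that equals the counts divided by 1 constant per library (11.9 and 13.4 for IL-1β, 11.8 and 16.1 for control). The single-library tables held the same counts as the series table. The numbering of the Bcat1 circles passes over circRNA.31930, which was not analysed here.

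A host was the only coding gene of RefSeq GRCm38.p6 (or else the only other gene) to hold both ends of a circle, within 1 bp. Coordinates are as in the deposited table. CircRNAs (15333) and host sums (4879) with at least 20 reads were fitted with edgeR 4.0.16 (TMM, quasi-likelihood, Benjamini-Hochberg over all tested) in R 4.3.3, with DESeq2 1.42.0 as an alternative. Circles use the factors of the circRNA table and gene sums those of the host table. The SE was taken as the absolute log2 change over √F, with F the statistic of edgeR's test. For the members, picked for this contrast, the SE gives no test of the change. Folds against 0 use 3 reads per library, and floors cover counting error only. Python 3.11.15 gave the other values.

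The members and lists were chosen with earlier results of these data known. All member circles with at least 20 reads, the 4 list hosts with the lowest p and the 3 nearest hosts are named by rule, except 1 host near Mthfd2l that is not reported here. Bckdhb, Pcca, Pccb and Mmut, and the relatives of the members, were named outside that rule. Alternatives were DESeq2, RLE factors, a replicate block, library totals or SRPBM as depth, a minimum of 1 or 50 reads, leaving out each library, junctions within 5 nt summed and the majority strand only.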

Additional observations from a re-analysis of the deposited data

How the results depend on the processing

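On the log2 scale the Bcat1 host change ranged from 0.82 (SRPBM depth) to 1.16 over the 13 alternatives run. With 1 library left out it ranged from 0.93 to 1.16. These alternatives reuse the reads on which the 3 genes were picked, so a kept direction is no test of the change. For Acss3 the range was -4.77 to -0.56, both ends from leaving out an IL-1β library. For Mthfd2l it was 0.065 to 0.55, both from leaving out a control. The leading circle of Mthfd2l changed sign, from -0.09 to 0.40 with 1 library left out, against 0.20 with all. Scaling by SRPBM depth moved the median of all hosts from -0.03 to -0.24. CircRNAs past an adjusted 0.05 numbered 3 in edgeR, 61 with the replicate block, 106 in DESeq2, 0 with at least 50 reads, 61 with at least 1 read, 0 with junctions within 5 nt summed, and 0 to 4 with 1 library left out. Hosts numbered 0 in edgeR, 20 with the replicate block, 55 in DESeq2, 12 with at least 1 read, and 0 to 2 with 1 library left out. Metabolic list hosts numbered 0 except 1 in DESeq2. The cause of these differences was not tested. The labels do not say whether libraries of equal replicate number were handled together. The correlation of their deviations was 0.03 over 2209 hosts, which cannot settle this with 2 libraries per group. With the block the Acss3 host change was -2.25. At the depth of these libraries 13 of the 33 circles had under 20 reads.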
